A study of Solenopsis japonica with 2 samples.

Results

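Salivary peptides of *Solenopsis japonica*, a fire ant that preys on soil invertebrates, were represented by 5 of the 4487 contigs in the deposited comparison of T9 with T25. A contig is a transcript assembled from the reads. Its gene name is that of its best match in the NR protein database or the NT nucleotide database, mostly in the related fire ant *Solenopsis invicta*. The contigs c88505_g1_i1, c85916_g1_i1 and c88505_g3_i1 were listed by name, and c88505_g2_i1 and c81311_g4_i1 were added because the word salivary stands in their NR or NT description. Names with the word venom were to be dropped, and 0 contigs were. The T9 group was wild-type adult medium workers held at 9 °C for 24 h, and the T25 group, the control, was the same kind of workers held at 25 °C for 24 h, from colonies reared at 25 °C. RNA was taken from whole bodies of pooled workers. The paper's methods name independent replicate preparations for each treatment, but the samples and deposited values hold 1 library per temperature. There is thus no spread between replicates and no test between temperatures. The listed contigs were chosen with their ratios between these libraries known, so the ratios describe the contigs and support nothing further.

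Salivary glands of ants, also called labial glands, open into the mouth and release a fluid with digestive enzymes, lubricants and small secreted proteins. Workers use it to handle prey and pass it to nestmates with regurgitated food. The name probable salivary secreted peptide belongs to a small secreted protein family of insects and was given to 4 of the 5 contigs. For each of these 4, the best UniProt match was the probable salivary secreted peptide of the bumblebee *Bombus ignitus*, the best EggNOG match was a single protein of the leafcutter ant *Atta cephalotes*, and the Pfam domain was MBF2, named after a silkworm protein first described as a partner of a transcription factor. The best *Drosophila melanogaster* match was CG34026 for c88505_g1_i1 and CG33998 for c88505_g3_i1, and both carried only the GO root terms that mark a gene without known function. The remaining contig, c81311_g4_i1, matched salivary glue protein Sgs-3-like, by nucleotide sequence only and without a Pfam domain. In *Drosophila* larvae Sgs-3 is a component of the glue that fastens the pupa to its support. The label salivary peptide therefore rests on the names of matches in other species, and no salivary gland was dissected.

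The 4 secreted peptides were abundant in the T9 library and from 16.3-fold to 104-fold lower in the T25 library. The contig c88505_g1_i1 (LOC105196694 of *S. invicta*) had 42533 read counts in T9 and 379 in T25. After scaling by normalised library sizes of 53237356 (T9) and 49264352 (T25), which were read from the deposited log2 values, this was 104-fold higher in T9, with a 95% interval of 93.9 to 115. Here and below the interval is exact (Clopper-Pearson) and covers only the counting error of reads taken as independent. It leaves out the spread between ants and the splitting of reads between like contigs. The level of c88505_g1_i1 per contig length, in fragments scaled to contig length and sequencing depth (FPKM), was 1034.5 in T9 and 9.10 in T25.

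The contig c88505_g2_i1 (LOC105196696) had 16092 counts in T9 and 197 in T25, a ratio of 75.6-fold (65.7 to 87.4). Its FPKM was 602.8 in T9 and 7.28 in T25. For c85916_g1_i1 (LOC105196697), 29448 counts in T9 stood against 399 in T25, a 68.3-fold (61.9 to 75.6) higher count in T9. The intervals of these 2 contigs overlap, while that of c88505_g1_i1 lies above both. The FPKM of c85916_g1_i1 was 299 in T9 and 4.0 in T25.

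The contig c88505_g3_i1 (LOC105196698) stood apart from the other secreted peptides by its level at 25 °C. It had 17106 counts in T9, close to the count of c88505_g2_i1, but 971 in T25, the highest of the 5 contigs. It was 16.3-fold (15.3 to 17.4) higher in T9, and its FPKM was 658 in T9 and 36.9 in T25. The fold of c88505_g1_i1 was 6.37 times that of c88505_g3_i1 (95% counting interval 5.65 to 7.18), that of c88505_g2_i1 4.64 times (3.97 to 5.41) and that of c85916_g1_i1 4.19 times (3.72 to 4.71). These differences exceed the counting error of reads taken as independent, and their spread between ants is unknown.

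The glue-protein match c81311_g4_i1 (LOC105193136) was scarce in both libraries. It had 52 counts in T9 and 13 in T25, an FPKM of 2.19 against 0.54, and a ratio of 3.70-fold (1.99 to 7.41), higher in T9. The smallest ratio of the table in either direction was 2.35-fold. Per length, c88505_g3_i1 stood 301 times above it in T9 and 68.3 times in T25.

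**Figure D1:**
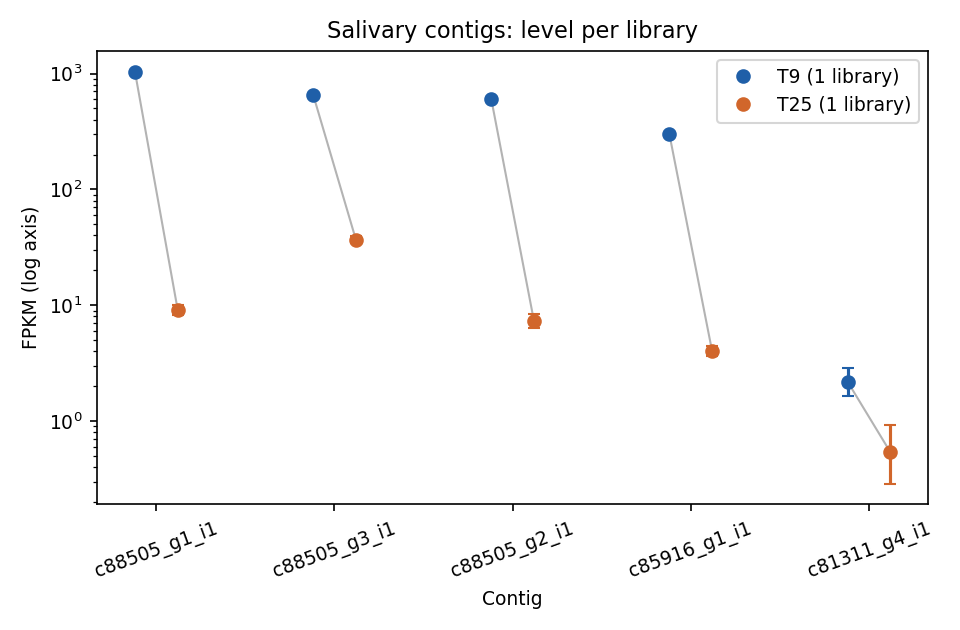
Level of the 5 salivary contigs in FPKM (log axis) in the T9 library (blue) and the T25 library (orange), with 95% counting intervals and a line joining the values of a contig. The 4 secreted peptides lie between 299 and 1034.5 in T9 and between 4.0 and 36.9 in T25, and c81311_g4_i1 lies at 2.19 and 0.54.

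All 5 contigs were at least 2-fold higher in T9, beside 54.7% of the 4487 contigs of the table, and 4 of the 5 were at least 10-fold higher, beside 10.6% of all contigs. The listed contigs were chosen from this same contrast, so these shares are given as description. The median log2 ratio, with 1 added to each scaled count, was 6.09 over the 5 contigs, 1.45 over all contigs of the table and 2.15 over the 2455 contigs of the table that were higher in T9. Ranked by ratio among the 4487 contigs, c88505_g1_i1 was at position 7, c88505_g2_i1 at 14, c85916_g1_i1 at 16, c88505_g3_i1 at 180 and c81311_g4_i1 at 1793. The table holds no contig with a ratio under 2.35-fold in either direction, so contigs with like levels at both temperatures, salivary ones included, were not analysed here.

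Summed over the 5 contigs, 105231 counts stood in T9 and 1959 in T25, a 49.7-fold (47.5 to 52.0) higher sum in T9. In CPM, counts scaled by the normalised library size, the sum was 1977 in T9 and 39.8 in T25. The sum of the 3 contigs of c88505 alone was 75731 in T9 and 1547 in T25, 45.3-fold (43.1 to 47.7) higher. Trinity, the assembler, places contigs that share sequence in a component, here c88505, and RSEM divides reads that fit several of them, so the sum is less affected by that division than the part of any one contig. The contig c85916_g1_i1 was assembled in a component of its own and showed a ratio between those of the c88505 contigs. In whole-body RNA, more cells of a source tissue and more RNA per cell cannot be told apart. The tissue that held these transcripts, gland or other, was not tested.

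The order of the levels per length differed between the libraries at the top. In T9 the order was c88505_g1_i1, c88505_g3_i1, c88505_g2_i1, c85916_g1_i1 and c81311_g4_i1, and no neighbours in it had overlapping counting intervals: c88505_g3_i1 had an interval of 649 to 668 FPKM and c88505_g2_i1 one of 594 to 612. In T25 c88505_g3_i1 came first with 34.6 to 39.3 FPKM. It was followed by c88505_g1_i1 with 8.21 to 10.1 and c88505_g2_i1 with 6.30 to 8.37, which overlap, and then by c85916_g1_i1 and c81311_g4_i1. Of the 5 contigs, 3 held the same position in both orders.

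The shares of the 5 contigs in their own sum differed between the libraries. Of the summed FPKM of the 5 contigs, c88505_g1_i1 held 39.8% in T9 and 15.7% in T25, and c88505_g3_i1 held 25.4% in T9 and 63.8% in T25. The share of c88505_g2_i1 was 23.2% in T9 and 12.6% in T25, and that of c85916_g1_i1 11.5% and 6.92%. In raw counts c85916_g1_i1 ranked second in T9, with 28.0% of the counts of the 5 contigs (27.7% to 28.3%, exact binomial interval). Its effective length, read from the counts and FPKM, was 3.79 times that of c88505_g3_i1, and per length it came after the 3 contigs of c88505. The effective length of c88505_g1_i1 was 1.58 times and that of c88505_g2_i1 1.03 times that of c88505_g3_i1.

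In the T9 library the secreted peptides were among the most abundant contigs of the table. By FPKM, c88505_g1_i1 was at position 21 of 4487 in T9 and 383 in T25, c88505_g3_i1 at 29 and 114, c88505_g2_i1 at 34 and 464, and c85916_g1_i1 at 53 and 771. The smallest shift in position thus belonged to c88505_g3_i1. These positions are among the contigs of the table only. The largest contig of the table, c68678_g1_i1, a match to the *S. invicta* mitochondrial genome, held 78.0% of the table's 11259918 counts in T25 and 26.2% of its 7176142 counts in T9, so shares of the table's total were not used, and the part of this contig in the salivary ratios was not tested.

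MBF2, the domain of the secreted peptides, was found in 2 further contigs of the table, and both were higher in T9, with smaller ratios than the 4 peptides. The contig c83212_g4_i2, an uncharacterized protein (LOC105193507), had 2809 counts in T9 and 279 in T25, a ratio of 9.32-fold (8.24 to 10.6). Its FPKM was 28.4 against 2.78. The contig c103384_g1_i1 (LOC105200896), described as a glycine, alanine and asparagine-rich protein, had 1042 counts in T9 and 287 in T25, and was 3.36-fold (2.95 to 3.84) higher, with an FPKM of 44.6 against 12.1. Neither has the EggNOG or UniProt match of the salivary peptides. In T25 the FPKM of c103384_g1_i1 was above those of c88505_g1_i1, c88505_g2_i1 and c85916_g1_i1, and in T9 it was below all 3.

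The 4 secreted peptides match loci of *S. invicta* with NCBI numbers from LOC105196694 to LOC105196698. NCBI numbers often follow the order of an annotation, but the positions of these loci were not analysed here. Within 10 numbers of them the table holds 4 further contigs, and in contrast to the peptides all 4 were lower in T9, beside 45.3% of all contigs of the table that were at least 2-fold lower. When the median of the housekeeping list was set to 0, the log2 ratios of T9 over T25 moved nearer to equal levels. They were -0.12 for c114541_g1_i1, -0.90 for c84617_g3_i3, -2.33 for c84617_g2_i1 and -3.11 for c26648_g1_i1. That list is a poor reference, since it too holds only contigs with ratios of at least 2.35-fold. It cannot show that a contig had equal levels. A pair of contigs matched LOC105196699, a probable H/ACA ribonucleoprotein complex subunit, which acts in RNA modification. Of these, c84617_g2_i1 had 4 counts in T9 and 76 in T25, 20.5-fold (7.70 to 77.3) lower in T9, and c84617_g3_i3 had 18 and 118, 7.08-fold (4.29 to 12.4) lower. The keratinocyte proline-rich protein-like contig c26648_g1_i1 (LOC105196700) had 8 counts in T9 and 252 in T25 and was 34.0-fold (17.0 to 79.7) lower, and the inositol 1,4,5-trisphosphate receptor contig c114541_g1_i1 (LOC105196704), a calcium channel, had 5 and 19 and was 4.11-fold (1.48 to 14.1) lower. In T25 the FPKM of the first 3 of these contigs, 5.55, 6.12 and 5.81, lay between those of c85916_g1_i1 and c88505_g2_i1, while in T9 they were at 0.30, 0.95 and 0.19 and the peptides at 299 or more.

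**Figure D2:**
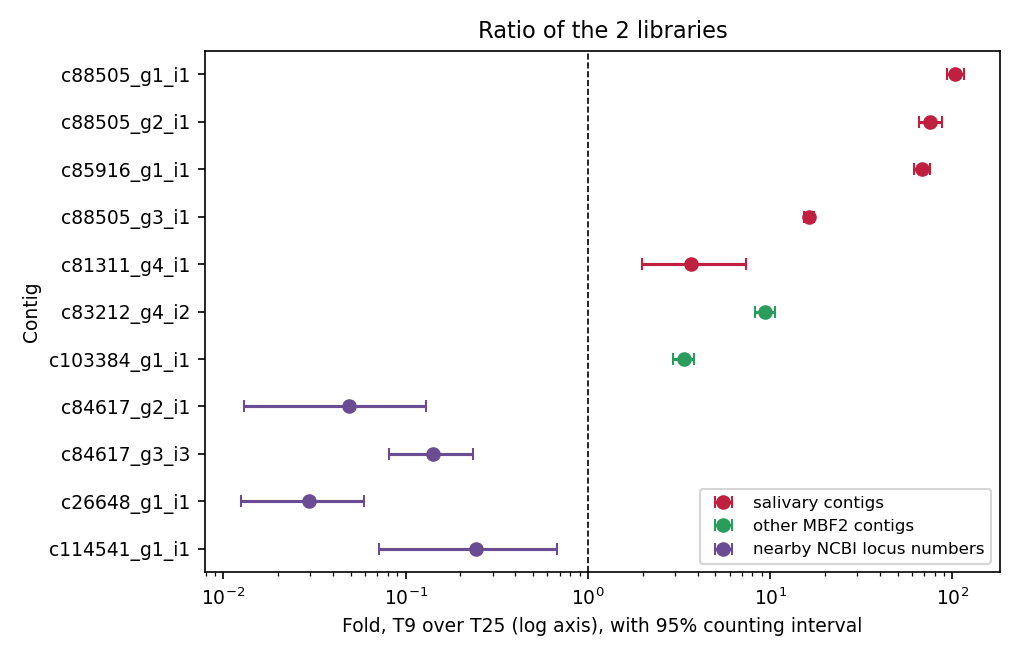
Fold of T9 over T25 (log axis) with 95% counting intervals for the 5 salivary contigs (red), the 2 other MBF2 contigs (green) and the 4 contigs with NCBI locus numbers within 10 of the secreted peptides (purple). The dashed line marks equal levels. The red and green intervals lie above 1 and the purple intervals below 1.

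Contigs as abundant in T9 and as much higher as the secreted peptides were few. Of the 476 contigs at least 10-fold higher in T9, which had a median of 29 counts in T9 and 2 in T25, 26 had at least 10000 counts in T9, and the 4 secreted peptides were among these 26. Of the other 22, 9 belonged to the list of gut proteases, 1 was the alpha-glucosidase-like contig c80199_g1_i1, which splits sugars, 1 was protein G12-like and 1 matched peritrophin-1-like, a protein of the gut lining. The remaining 10 were in no list. They were 5 uncharacterized or hypothetical proteins, the family 31 glucosidase KIAA1161 (c35068_g1_i1), protein mesh (c83980_g1_i1), cytochrome P450 4g15 (c39730_g1_i1), fatty acid synthase (c21111_g1_i1), which builds fatty acids, and acyl-CoA Delta(11) desaturase (c88751_g1_i2), which places a double bond in them. The contigs with ratios nearest to those of c88505_g1_i1, c88505_g2_i1 and c85916_g1_i1 in this group were chymotrypsin-1-like c102119_g1_i1, a digestive protease, at 94.99-fold (83.7 to 108), and the G12-like contig c106856_g1_i1, of a family found in insect guts, at 71.9-fold (65.8 to 78.7). Nearest to c88505_g3_i1 were the uncharacterized contigs c90280_g1_i3 at 20.6-fold (19.8 to 21.4) and c70650_g1_i1 at 13.1-fold (12.3 to 13.9). Of the contigs called uncharacterized or hypothetical here, c90280_g1_i3 and c88709_g1_i1 carry the peptidase domain Peptidase_M1, and c90078_g1_i1 carries Baculo_F. The paper names c88709_g1_i1 aminopeptidase N. Likeness here is that of 1 ratio over 2 libraries.

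**Figure D3:**
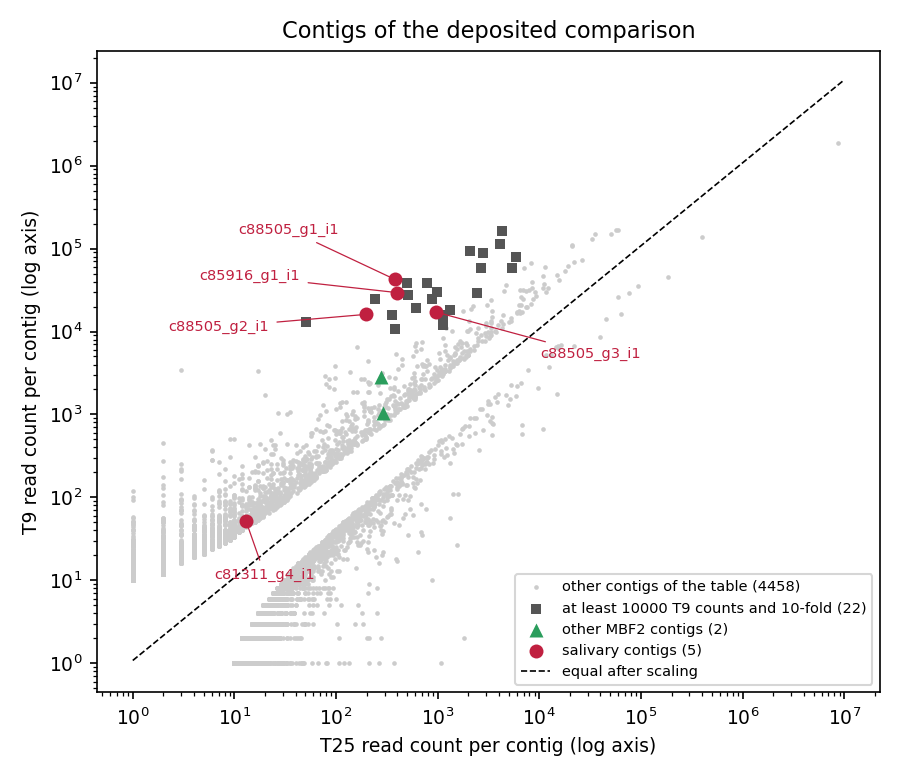
Read count of each of the 4487 contigs in T25 (horizontal, log axis) and T9 (vertical, log axis), with the 5 salivary contigs in red, the 2 other MBF2 contigs in green and the 22 other contigs with at least 10000 counts in T9 and a ratio of at least 10 as dark squares. The dashed line marks equal counts after scaling, and the empty band around it is where ratios under 2.35-fold would lie. The 4 secreted peptides lie with the dark squares, and c81311_g4_i1 lies near the edge of the empty band.

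Beside the salivary contigs, other products of glands and digestion were mixed in direction. Words for enzymes and proteins that insect labial glands or guts release stood in the descriptions of 15 contigs. Of these 9 were higher and 6 lower in T9, beside 54.7% of all contigs higher and 45.3% lower. The words also caught 2 tubulin polyglutamylases, c78355_g2_i1 and c88197_g1_i1, which act on the cytoskeleton and are not secreted, and without these 8 contigs were higher and 5 lower. Among the 8 is neutral alpha-glucosidase AB (c82309_g1_i1), an enzyme that stays in the endoplasmic reticulum. Also among them are c73740_g2_i1 and c73740_g3_i1, which share a component. The paper gives c73740_g3_i1 and the alpha-glucosidase-like c80199_g1_i1 the same locus, so these are counts of contigs and not of separate genes. The contig with the most counts was c80199_g1_i1, with 94084 counts in T9 and 2103 in T25, 41.4-fold (39.6 to 43.2) higher and thus between c85916_g1_i1 and c88505_g3_i1. Venom proteins, the products of the poison gland, counted 2 contigs higher and 1 lower. Venom acid phosphatase Acph-1-like (c1274_g1_i1) was 5.37-fold (4.98 to 5.80) higher in T9, and the queen venom protein Sol g II (c44178_g1_i1) 2.70-fold (2.20 to 3.33) lower, or higher in T9 by 0.47 on the log2 scale when the median of the housekeeping list was set to 0. Both ratios were smaller than those of the 4 secreted peptides. Machinery of secretion was represented by 2 contigs. Endoplasmin (c84783_g2_i1), a chaperone of the endoplasmic reticulum, was 3.14-fold (3.005 to 3.28) higher. Sec61 alpha (c13375_g1_i1), part of the channel into that reticulum, had 2 counts in T9 and 16 in T25. Its description was that of the silkworm *Bombyx mori*, and no NCBI locus number of an ant was found for it. Of 8 fork head and related transcription factors, a family that in *Drosophila* includes a regulator of salivary gland secretion, 5 were higher and 3 lower in T9. Each of these counts stands beside 54.7% of all contigs that were higher. The 3 fork head contigs with the most counts, all higher in T9, matched slp1-like (c87961_g1_i2), FD4 (c84123_g1_i2) and forkhead box protein O (c89945_g4_i1). Their descriptions name other members of the family than the salivary gland regulator.

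Lists of words that mark other tissues of the whole ant lay on both sides. They are read beside the 54.7% of all contigs that were higher and the 45.3% that were lower in T9. Gut proteases were higher in T9 in 26 of 37 contigs (median log2 ratio 2.75), or in 24 of 34 without 2 protease inhibitors and 1 cytosolic carboxypeptidase that the words also caught, and their summed FPKM was 9163 in T9 and 351 in T25. Protein G12-like was higher in 1 contig and lower in 1, and gut lining proteins were higher in 10 of 21, or in 14 of 21 when the median of the housekeeping list was set to 0. Contigs of the fat body list, not all of them storage proteins, were higher in 4 of 6. Their summed FPKM was 645 in T9 and 219 in T25. Most of this sum came from apolipophorins (c84287_g2_i1), lipid carriers rather than storage proteins, at 391 and 129. A contig with a vitellogenin domain (c89203_g1_i4) added 239 and 76.7. The 2 lower ones, both named as storage proteins, went against the sum. Arylphorin subunit alpha-like c72825_g1_i1 had 18 counts in T9 and 386 in T25, and hexamerin-like c78787_g1_i1 had 24 and 200. The contigs of antennal chemosensory proteins were higher in T9 in 4 of 52 cases, or in 9 of 52 with the housekeeping median at 0. Their summed FPKM was 366 in T9 and 505 in T25, but the pheromone-binding protein match c86453_g1_i1 held 76.2% of the sum in T9, and without it the sums were 87.1 and 438. Muscle contigs were higher in 3 of 23, with summed FPKM of 1609 in T9 and 3638 in T25, or in 10 of 23 with the housekeeping median at 0. Those of photoreceptors were higher in 0 of 2. The part of gut, gland or antennal tissue in the salivary ratios was not tested.

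**Figure D4:**
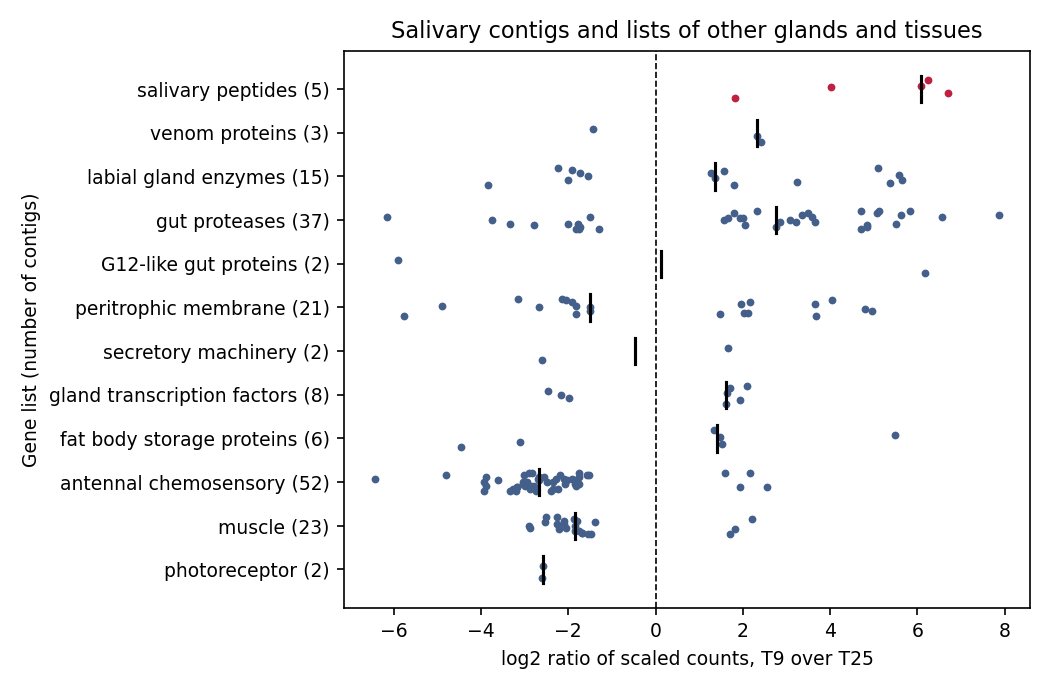
Log2 ratio of scaled counts of T9 over T25 for each contig of the salivary group (red) and of 11 lists of other glands and tissues (blue), with the number of contigs in parentheses and the median as a black bar. The median of the salivary group is 6.09 and that of the gut proteases 2.75. The lists were made by words and hold some contigs of other function. Examples are the 2 tubulin polyglutamylases among the labial gland enzymes and apolipophorins among the fat body storage proteins. The table holds no contigs near 0.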

How the data were processed

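RNA-seq of whole *S. japonica* workers at 9 °C (T9) and 25 °C (T25) was used, with 1 library per temperature. The submitters' processing notes name FastQC 0.11.7, Trimmomatic 0.38, Bowtie 1.1.2 and RSEM, and the methods add Trinity and CD-HIT. The authors pooled the reads for de novo assembly and deposited the read count of each contig, which is a whole number of at least 1, since contigs with a count of 0 were left out. The FPKM values were deposited by the authors relative to contig length and sequencing depth. The log2 values deposited by the authors are log2(CPM + 1) and served to read the normalised library sizes, which give 100% of these values within 0.1%. The deposited fold change (a signed score), log2 mean CPM and p-value columns hold the authors' own comparison and were not used.

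Ratios were taken of counts divided by these library sizes, their 95% intervals were exact (Clopper-Pearson), and log2 ratios with a pseudocount of 1. FPKM intervals are exact Poisson intervals of the count. All intervals cover only the counting error of reads taken as independent. Reads without molecular identifiers are not independent molecules, so the intervals can be too narrow even for counting error. No test of temperature was made. Members and word lists (13 in all, sought without regard to case in the NR and NT descriptions) were chosen with earlier results of these data known. Of the ribosomal and housekeeping list, 6 contigs were higher and 10 lower in T9, with 1039 counts in T9 and 2570 in T25. All of them have ratios of at least 2.35-fold, so the list holds no unchanged contig and is a poor reference. Named contigs are the members, those with their Pfam, UniProt, EggNOG, KEGG or *Drosophila* match or a locus number within 10, the largest of each list, and those with at least 10000 counts in T9 and a ratio of at least 10. A few other contigs are named where they qualify the count of a list. Alternatives covered scaling, pseudocount, the description searched, a minimum of 10 counts and the contigs summed. Calculations were tested on simulated data. Python 3.11.15, numpy 2.4.6, pandas 2.3.3, scipy 1.17.1 and matplotlib 3.10.9 were used.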

Additional observations from a re-analysis of the deposited data

How the results depend on the processing

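No paired analysis was possible because each temperature has 1 library. For the same reason no replicate could be left out. In each alternative tried the salivary contigs stayed higher in T9, and over 5 contigs and 5 scalings or pseudocounts the log2 ratio kept its direction in 25 of 25 values, from 1.57 to 8.60. Setting the median of the housekeeping list to 0 shifts the log2 ratio of the scaled counts by 1.91, or by less for contigs with few counts once 1 is added, which moved the salivary median to 7.997 and the summed ratio to 187-fold. Under it 3026 of the 4487 contigs are higher and 1461 lower, beside 2455 and 2032, and the lists of other genes with more contigs higher than lower numbered 6 in place of 5. Without the 2 tubulin polyglutamylases that the word tubulin caught, a choice made after seeing the data, the median of the housekeeping list was -2.38, a larger shift. Scaling by clean reads shifts the log2 ratio of the scaled counts by 0.13 and gave a summed ratio of 54.4-fold, and summed FPKM, which weights short contigs more, gave 44.9-fold. Without c88505_g1_i1 the summed ratio was 36.7-fold, and with the c88505 contigs alone 45.3-fold. Taking the 6 MBF2 contigs in place of the word salivary, a choice made after seeing the data, gave 6 of 6 higher, a median of 5.06 and a summed ratio of 40.2-fold. Depth limits c81311_g4_i1 most, with 13 counts in T25.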

Other observations

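The glue-protein match c81311_g4_i1 matched LOC105193136, and 5 further contigs had NCBI locus numbers within 10 of it. Of these 5 contigs, 2 were higher and 3 lower in T9. The higher ones were protein phosphatase 1 regulatory subunit 3C-B (c87056_g1_i1), a regulator of glycogen storage, with 1378 counts in T9 and 437 in T25, and serine protease persephone-like (c30101_g1_i1), known in *Drosophila* from Toll signalling, with 500 and 193. The lower ones had at most 26 counts in a library, among them odorant receptor 13a-like (c69423_g1_i1) with 2 and 26. The ratio of c81311_g4_i1, 3.70-fold (1.99 to 7.41), overlapped that of c87056_g1_i1, 2.92-fold (2.62 to 3.26), within counting error.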
